A study of Homo sapiens with 13 samples.

Results

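CC chemokines are small secreted proteins that direct the movement of leukocytes through receptors on the migrating cell, and 10 of them were followed here among the 23637 gene symbols of the expression tables. They were taken by gene symbol and not by a cut on measured values, though with earlier results of these data known. They are the eotaxins CCL26, CCL24 and CCL11, the CCR4 ligands CCL17 and CCL22, the CCR10 ligands CCL27 and CCL28, the CCR6 ligand CCL20, and the broadly acting CCL2 and CCL5. Eotaxins draw eosinophils through CCR3. CCL26, eotaxin-3, is a known target of interleukin-13 (IL-13) in esophageal epithelium, where IL-13 acts through the IL-4 receptor and the transcription factor STAT6, and its transcript is known to be raised in eosinophilic esophagitis.

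The cells were TE-7, an established human line described by the labels as esophageal epithelial. RNA came from cells exposed for 2, 6 or 24 hr to IL-13 (100 ng/ml) and from control cells of the same times, 1 library for each, and the labels do not say what the controls received. Chromatin immunoprecipitation of H3K4me3, H3K9Ac and H3K27Ac, marks of active promoters and, for H3K27Ac, also enhancers, covered untreated cells and cells given IL-13 for 6 hr, with 1 library for each mark and treatment. A difference between 2 single libraries has no replicate check, the libraries are of 1 cell line, and nothing says that they came from separate cultures.

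Expression is given as RPKM, reads per kilobase of transcript and per megaread mapped, so levels can be set side by side between genes. All 11 epithelial markers looked up, KRT5 and TP63 among them, reached an RPKM of 1 in the tables. Of 14 leukocyte markers 13 stayed under 0.5 RPKM in every library, with CD3D, MS4A1 and FCGR3A among those listed at 0 throughout, and CD68 was the exception at up to 5.01 RPKM. Their summed level was 2.89 to 5.72 RPKM. Depth, read from the spacing of low values in short unspliced genes, was 13.6 megareads in the control at 24 hr and 14.0 with IL-13, where 1 read in 1 kb of transcript is worth 0.0737 and 0.0713 RPKM. KRT14, a keratin of basal epithelium, was lower with IL-13 at 24 hr, at 287 and 137 RPKM. By the same spacing the 4 libraries at 2 and 6 hr look like means of 2 read sets of 13.0 to 26.9 megareads each. Their 2 controls seem to have a set in common, since they hold 359 identical values above 0. The control at 2 hr also held brain transcripts, with 29.5 RPKM summed over 12 brain markers against 7.31 to 8.23 elsewhere.

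Only CCL26 responded to IL-13 at all 3 times, and its response grew. CCL26 (chromosome 7, 75398842 to 75419064, minus strand, hg19) was at 5.41 RPKM at 2 hr in the control library and 23.2 in the IL-13 library, at 6.27 and 54.8 at 6 hr, and at 5.51 and 166 at 24 hr. The 3 controls lay within 1.16-fold of each other, and each IL-13 library lay above all of them. The plain ratio of RPKM was 4.29 at 2 hr, 8.75 at 6 hr and 30.1 at 24 hr, and the gain over the control was 17.8, 48.6 and 160 RPKM. At 24 hr these levels correspond to 74.7 and 2322 reads per kilobase of transcript, so counting noise is small beside the difference. In bulk RNA a change in the number of cells that make a transcript and a change in the RNA of each cell cannot be told apart.

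The size rule for a change asked for a 2-fold difference on log2(RPKM + 0.1) and for 1 RPKM or more in the higher of both libraries. Only 3 of the 10 members reached that minimum at 2 hr, 2 at 6 hr and 4 at 24 hr, and the others were not compared. By this rule 1 member was higher at each time, in each case CCL26. Of all genes compared 0.658%, 0.753% and 0.886% were higher. Among genes of at least 300 bp its log2 ratio was the 11th largest of 11837 at 2 hr, the 8th of 11797 at 6 hr and the 4th of 12389 at 24 hr. Measured as a gain in RPKM it went from the 46th to the 18th and the 4th place. In the authors' deposited table its p-value was the smallest of all genes at 24 hr, with an adjusted p of 1.4e-56, where 0.592% of all genes had one under 0.05. In the authors' deposited table its adjusted p was 1.0 at 2 hr and 0.141 at 6 hr, and its p-value there ranked 10th and 99th. With 1 library per group, these p-values do not measure the spread between cultures.

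**Figure D1:**
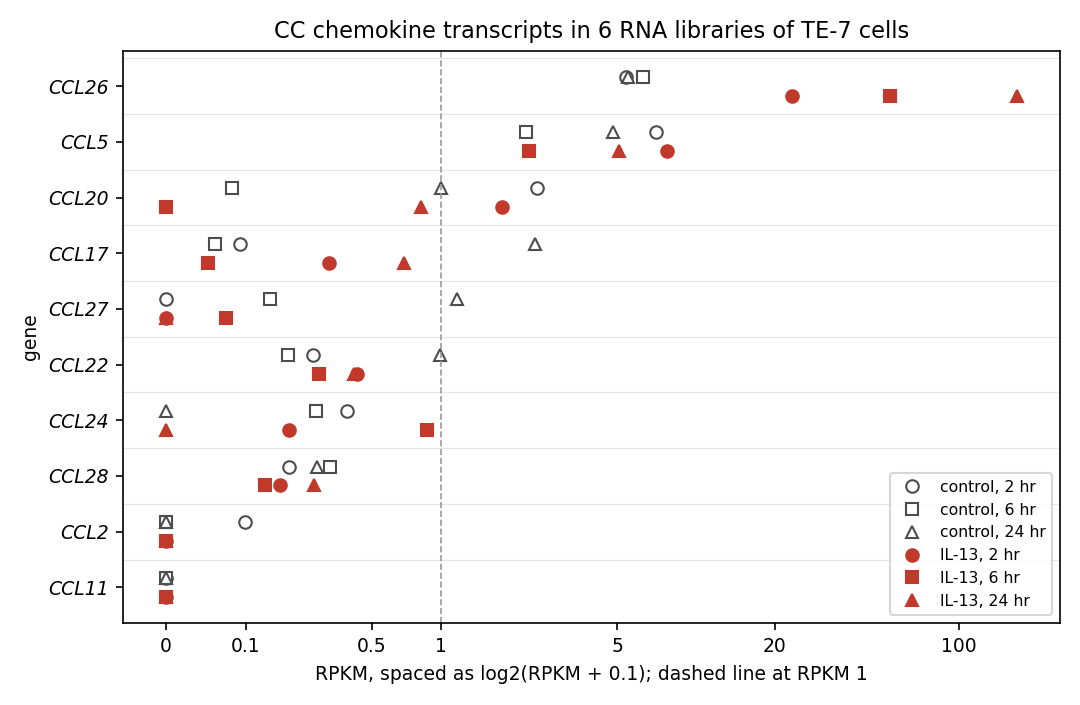
RPKM of the 10 CC chemokines (rows) in each of the 6 RNA libraries, on an axis spaced as log2(RPKM + 0.1). Open grey symbols are controls, filled red symbols IL-13, and shapes give the time. The 3 IL-13 libraries of CCL26 lie between 23.2 and 166 RPKM, clear of its controls at 5.41 to 6.27, while the IL-13 and control ranges of the other genes overlap or lie at 0.

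The place of CCL26 among all transcripts moved accordingly. It ranked 8212, 7880 and 9047 of 23637 genes by RPKM in the controls at 2, 6 and 24 hr, and 3470, 1509 and 374 with IL-13. Within the family it made up 34.0% of the summed RPKM of the 10 genes in the control at 2 hr, 65.8% at 6 hr and 34.2% at 24 hr. With IL-13 that share was 68.6%, 93.8% and 95.8%. The summed level rose from 16.1 to 173 RPKM at 24 hr, while the other 9 genes together stood at 10.6 and 7.24 RPKM. At 2 and 6 hr the other 9 held 10.5 and 10.6, and 3.26 and 3.65 RPKM.

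**Figure D2:**
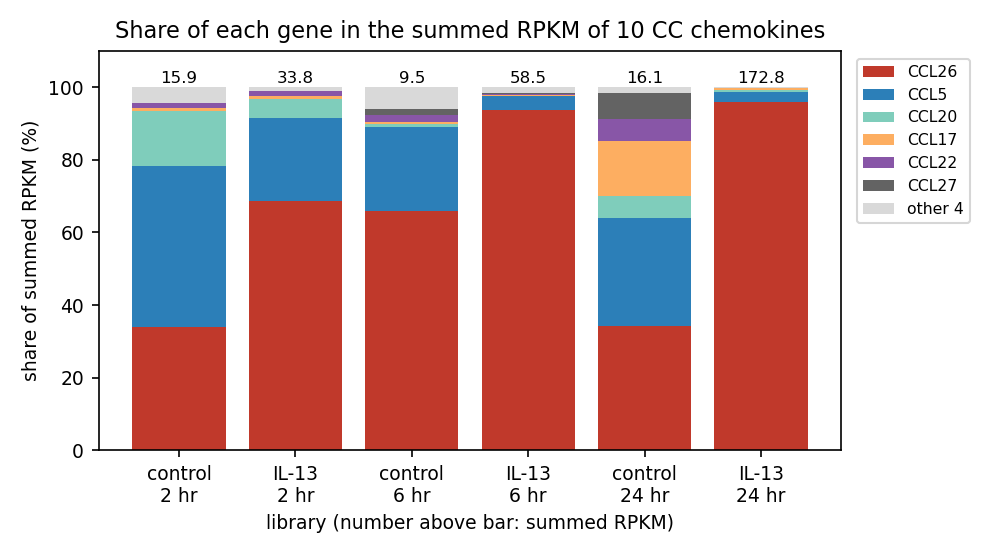
Share of each gene in the summed RPKM of the 10 CC chemokines, 1 bar per RNA library, with the summed RPKM above each bar. CCL26 takes 34.0% to 65.8% in the controls and 68.6% to 95.8% with IL-13, and CCL5 most of the rest at 2 and 6 hr.

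A change common to 2, 6 and 24 hr was tested with limma over all genes, with time and treatment as terms. CCL26 was higher by 3.36 ± 0.57 (SE) on the log2 scale, higher at 3 of 3 times, with an adjusted p of 0.177 over 11953 genes. It did not pass 0.05, and neither did any other gene (0%), while 16.9% of genes had an unadjusted p under 0.05. With limma-trend 6 genes passed, and CCL26 had an adjusted p of 0.102. The p treats the times as repeats of 1 effect, although the ratio of CCL26 was different at each. An exact permutation test of the 3 IL-13 libraries against the 3 controls gave a two-sided p of 0.1, the smallest that 3 against 3 allows. That test leaves time aside and takes the libraries as independent, which the controls at 2 and 6 hr, with 359 values in common, are not. The limma fit also takes the libraries as independent, so its SE and p-values have the same limit. Of the genes reaching 1 RPKM, 1.33% likewise had all 3 IL-13 libraries above all 3 controls, and CCL26 was the 1 member among them.

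The IL-13 libraries were also compared with each other, with 1 library at each time. CCL26 was 2.37-fold higher at 6 than at 2 hr and 3.02-fold higher at 24 than at 6 hr, past the 2-fold rule in both steps, as were 0.522% and 14.9% of all genes. In the controls CCL26 passed the rule in neither step, at 1.16-fold and 0.879-fold, though the controls at 2 and 6 hr seem to have a read set in common. CCL5 was also higher from 6 to 24 hr in the IL-13 libraries, by 2.24-fold, and relative to the median shift of all genes its log2 ratio was 0.92, which no longer passed. The 24 hr pair reads as single read sets and the earlier pairs as 2 each, so time and the kind of library cannot be told apart in any comparison of 24 hr with earlier times.

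The other eotaxins stayed under the level at which a response could be called. CCL24, eotaxin-2, which lies 22.1 kb from CCL26 on chromosome 7 and on the same strand, was at 0.384 RPKM (control) and 0.193 (IL-13) at 2 hr, at 0.268 and 0.869 at 6 hr, and was listed at 0 in both libraries at 24 hr. Its highest value was thus with IL-13 at 6 hr, 3.25-fold over the control, and it did not reach the minimum of 1 RPKM. In the authors' deposited table its p-value at 6 hr was 0.36. CCL11, eotaxin-1, was listed at 0 in all 6 libraries.

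The genes next to CCL26 moved little. HIP1, an endocytic adaptor whose gene ends 30.6 kb away on one side, stood at 18.2 and 22.0 RPKM at 24 hr, and PMS2P3, a pseudogene beyond it whose reads may be split with its near-identical copies, at 6.53 and 5.84. On the other side RHBDD2, a membrane protein of the rhomboid family, stood at 107 and 140 RPKM and POR, the electron donor of cytochrome P450 enzymes, at 71.0 and 81.8 at 24 hr. The log2 ratios of these 4 genes, which are the nearest of at least 1 RPKM, ran from -0.16 to 0.39 over the 3 times, against 2.08, 3.11 and 4.88 for CCL26.

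Genes were ranked by how near their 3 log2 ratios lay to those of CCL26, as the root mean square difference over 2, 6 and 24 hr among 12671 genes of at least 300 bp. CDH26, a cadherin of epithelium, was by far the nearest at 0.36. It stood at 0.223 and 0.822 RPKM at 2 hr, 0.312 and 3.63 at 6 hr and 0.210 and 10.8 at 24 hr, so that its ratio also grew with time. GCNT3, an enzyme of mucin glycosylation, followed at 1.05, the cytokine IL31 at 1.11, the metalloproteinase MMP7 at 1.18 and the protease inhibitor SERPINB4 at 1.29. GCNT3, MMP7 and SERPINB4 had their largest log2 ratios at 6 hr, at 4.11, 3.36 and 3.95, not at 24 hr. IL31, listed at 0 in each control, did not exceed 1.18 RPKM.

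**Figure D3:**
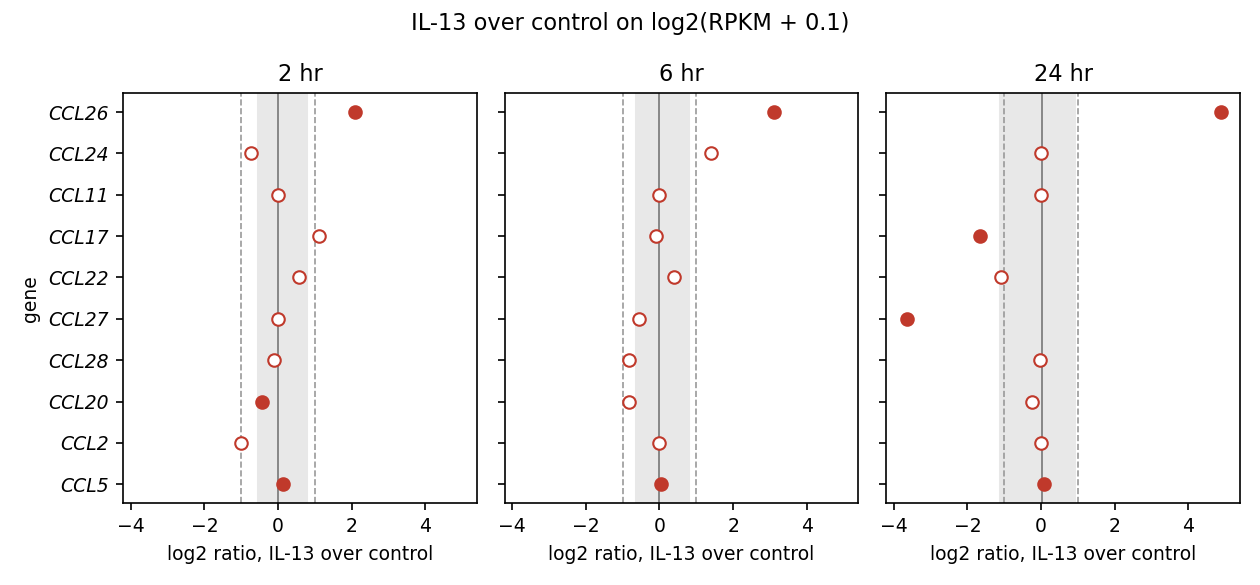
Log2 ratio of IL-13 over control on log2(RPKM + 0.1) for each gene at each time. Filled points reached 1 RPKM in the higher library, open points did not, the grey band spans the 1st to the 99th percentile of all genes compared, and dashed lines mark 2-fold. CCL26 lies outside the band at all 3 times, at 2.08, 3.11 and 4.88, and CCL17 and CCL27 lie below it at 24 hr.

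CCL17 and CCL22, which attract T helper type 2 cells through CCR4, had their highest levels in the control at 24 hr, not in an IL-13 library. CCL17 (chromosome 16, 57438679 to 57449974, plus strand) was at 0.0908 RPKM (control) and 0.315 (IL-13) at 2 hr, at 0.0532 and 0.0444 at 6 hr, and at 2.40 and 0.696 at 24 hr. The control at 24 hr is the single library above 1 RPKM, and IL-13 at that time was 3.45-fold lower. CCL22, which lies 38.6 kb from CCL17 on chromosome 16, stood at 0.260 and 0.430 RPKM at 2 hr, 0.188 and 0.278 at 6 hr, and 0.985 and 0.415 at 24 hr. Its control at 24 hr was again the highest of the 6 libraries, just under the minimum level, and IL-13 at 24 hr was 2.37-fold lower. At 2 hr both genes had their higher value with IL-13, at levels under 0.5 RPKM.

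CCL27, a chemokine of skin keratinocytes that acts through CCR10, was likewise highest in the control at 24 hr. It was listed at 0 in both libraries at 2 hr, and was at 0.147 RPKM (control) and 0.0682 (IL-13) at 6 hr, and at 1.16 and 0 at 24 hr. By the size rule 2 of the 4 members compared at 24 hr were lower, CCL17 and CCL27, against 1.27% of all genes compared. Both were compared only through the control at 24 hr, their single library above 1 RPKM, so the rule could not call them higher. At 24 hr the control values of CCL17, CCL22 and CCL27 correspond to 32.5, 13.4 and 15.7 reads per kilobase of transcript, against 9.76, 5.83 and 0 with IL-13. In the authors' deposited table their p-values at 24 hr were 0.0378, 0.0477 and 0.0263, and none had an adjusted p under 0.05. The 3' end of CCL27 overlaps that of IL11RA, on the other strand, by 6 bp, and IL11RA stood at 2.62 and 1.92 RPKM at 24 hr. CCL28, the other CCR10 ligand and a product of mucosal epithelia, stayed between 0.138 and 0.319 RPKM in all 6 libraries, with overlapping groups.

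CCL20 and CCL5 passed the size rule between times and not between IL-13 and control. CCL20 (chromosome 2, 228678558 to 228682280, plus strand), which attracts CCR6-bearing dendritic cells and lymphocytes, was at 2.43 RPKM (control) and 1.77 (IL-13) at 2 hr, at 0.0779 and 0 at 6 hr, and at 0.994 and 0.820 at 24 hr. It was the lower of each pair with IL-13, by less than 2-fold where it reached 1 RPKM, and both treatments had their highest value at 2 hr and their lowest at 6 hr. It was under the minimum level of the limma fit. With a minimum of 0.5 RPKM its limma change with IL-13 was -0.50 ± 0.13 (SE) on the log2 scale, lower at 3 of 3 times, with an adjusted p of 0.26. The largest of its ratios, -0.83 at 6 hr, compares 0.0779 RPKM with 0. It became -0.11 with a pseudocount of 1 and -3.14 with a pseudocount of 0.01. CCL5 (chromosome 17, 34198496 to 34207377, minus strand), known as RANTES, a ligand of CCR1 and CCR3 among others, stood at 7.02 and 7.76 RPKM at 2 hr, 2.21 and 2.26 at 6 hr, and 4.80 and 5.05 at 24 hr. In limma it was higher with IL-13 by 0.08 ± 0.05 (SE) on the log2 scale, higher at 3 of 3 times, with an adjusted p of 0.449. CCL5 and CCL26 were the 2 members with at least 1 RPKM in at least 3 libraries, and so the only ones in that test. In the controls CCL5 was the highest member at 2 hr and CCL26 at 6 and 24 hr, the gap at 24 hr being 4.80 against 5.51 RPKM. CCL2, which attracts monocytes through CCR2, stood at 0.0997 RPKM in the control at 2 hr and was listed at 0 in the other 5 libraries. That control is the library with brain transcripts, and their part in this value was not tested.

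**Figure D4:**
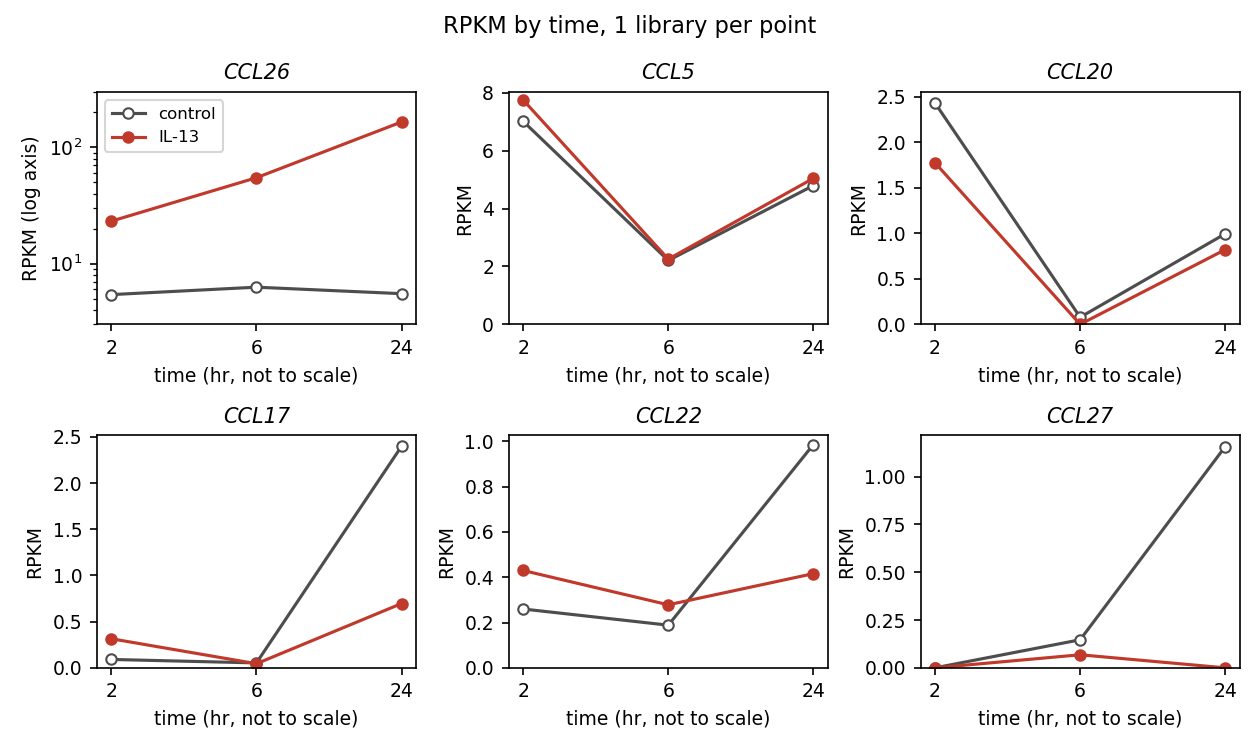
RPKM of 6 CC chemokines by time in control (open grey) and IL-13 (filled red) cells, 1 library per point, with a log axis for CCL26 and linear axes from 0 for the others. CCL26 separates at 2 hr and goes on to 166 RPKM at 24 hr, CCL5 and CCL20 dip at 6 hr in both treatments, and CCL17, CCL22 and CCL27 are highest in the control at 24 hr.

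The changes over time in the control cells were read by the same size rule. From 2 to 6 hr CCL20 was 31.2-fold lower and CCL5 3.18-fold lower, 2 of 3 members compared, where 2.36% of all genes were lower. These 2 controls hold 359 identical values and seem to have a read set in common, so the sizes of these changes are uncertain. Both genes were also lower at 6 hr in the IL-13 libraries, CCL5 by 3.44-fold and CCL20 at 1.77 RPKM and then listed at 0. That was 2 of 3 members compared, where 2.9% of genes were lower. From 6 to 24 hr CCL17, CCL27 and CCL5 were higher in the controls, by 45.1-fold, 7.88-fold and 2.17-fold. That was 3 of 4 members compared, where 16.2% of all genes were higher. From 2 to 24 hr 2 of 5 members compared were higher, CCL17 and CCL27, and 1 lower, CCL20, against 16.4% and 5.66% of all genes. CCL20 was compared only through its 2 hr libraries, since it reached 1 RPKM at no other time. The rule could thus only call it lower later, and its 31.2-fold divides by 0.0779 RPKM, a value near the floor. CCL17 and CCL27 were compared only through the control at 24 hr, their single library above 1 RPKM, and over time could only be called higher. Their calls over time and with IL-13 thus rest on the same library and are not separate results. All genes shifted by a median of 0.23 from 6 to 24 hr and 0.30 from 2 to 24 hr on the log2 scale. Relative to that shift CCL5 rose by 0.86 from 6 to 24 hr and no longer passed the rule, while CCL17 and CCL27 did, at 3.80 and 2.12. With a pseudocount of 1 in place of 0.1 the calls of CCL27 and CCL5 from 6 to 24 hr and of CCL20 from 2 to 24 hr were lost. With a minimum of 0.5 RPKM CCL20 and CCL22 were also called higher from 6 to 24 hr, and CCL22 from 2 to 24 hr.

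The rest of the family and its receptors were nearly silent. Of 18 other CC chemokines 10 were listed at 0 in all libraries, and 0 passed the 2-fold rule at any time. CCL3L1 and CCL3L3, near-identical copies that share reads, reached 1.08 and 1.09 RPKM with IL-13 at 2 hr, against 0.969 and 0.980 in the control. The 19 receptor symbols looked up, some of them old and new names of the same gene, matched 15 listed genes. Of these, 14 stayed under 0.5 RPKM in every library and 5 were listed at 0 in all. CCR3, the eotaxin receptor, was listed above 0 in 1 library, the control at 2 hr, with 0.0215 RPKM. CXCR7, an atypical receptor of CXC chemokines, was the 1 receptor above 0.5 RPKM, at 14.5 to 105 RPKM, and did not change 2-fold with IL-13.

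The IL-13 pathway was present in these cells. Of its 18 genes 15 could be compared at 2 hr, 15 at 6 hr and 16 at 24 hr. Of these, 2 were higher at each time, where 0.658%, 0.753% and 0.886% of all genes were, and 0, 0 and 1 lower, the last where 1.27% of all genes were. Their log2 ratios had medians of 0.01, 0.07 and -0.02 against 0.00, 0.00 and 0.02 for all genes. SOCS1, which inhibits JAK kinases, stood at 1.99 and 9.42 RPKM at 2 hr, 1.57 and 6.87 at 6 hr and 2.24 and 5.04 at 24 hr. CISH, of the same family of inhibitors, stood at 3.50 and 16.1, 5.04 and 14.5, and 3.18 and 8.21 RPKM. Their ratios were thus largest at 2 hr, at 4.74 and 4.60, and that of CCL26 at 24 hr. IRS1, which links the IL-4 receptor to PI3-kinase, was 2.47-fold lower at 24 hr. Of 16 NF-kB pathway genes 0 were higher or lower with IL-13 at any time, with medians of 0.01, 0.05 and -0.04.

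Histone marks were listed at starts of 3 of the 10 genes: CCL26, CCL22 and CCL27. For each mark the authors deposited M, the log2 ratio of library 1 over library 2, and A, the mean log2 level. Neither labels nor headers state which library was treated, so no direction of IL-13 is given to a peak and the order may differ between marks. Peaks past 2-fold (M of 1 or more, or of -1 or less) were called if the level of the higher library, taken from M and A, was 30 or more. The tables assign peaks to 2 starts of CCL26 on chromosome 7 (hg19, minus strand), 75401572 and 75419064, which lie 17.5 kb apart. The inner start is 2730 bp and the outer 20222 bp from the 3' end of the gene, which spans 75398842 to 75419064. RPKM is summed over the gene and does not tell from which start its RNA came.

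At the inner start of CCL26 the 2 acetyl marks differed greatly between libraries. Its H3K27Ac peak found in both libraries had M of -2.07 in the authors' deposited table, with levels of 56.7 in library 1 and 238 in library 2. The -log10 p of that peak, 33.88 in the authors' deposited table, was the highest of 15147 H3K27Ac peaks. A second H3K27Ac peak there, found only in library 2, had M of -2.72 and a -log10 p of 14 in the authors' deposited table, with levels of 13.9 and 91.8. H3K9Ac had a single peak at the inner start, found only in library 2, with M of -2.89 and a -log10 p of 5.55 in the authors' deposited table and levels of 4.71 and 34.9.

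At the outer start the libraries were alike. H3K27Ac had M of 0.04 in the authors' deposited table there, with levels of 58.5 and 56.9, and a weaker peak had -0.38. H3K9Ac had -0.33 in the authors' deposited table, with levels of 16.7 and 21.0, under the minimum. In library 1 of H3K27Ac the 2 starts were thus marked alike, at 56.7 and 58.5, and in library 2 the inner start was the stronger, at 238 against 56.9. The whole list of H3K27Ac peaks had a median M of 0.09 in the authors' deposited table.

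H3K4me3 was listed at neither CCL26 start. A peak of that mark was listed for 96.5% of the 2115 genes whose higher RPKM at 6 hr was between 30 and 100, the range in which CCL26 lies with its 54.8 RPKM. H3K9Ac and H3K27Ac peaks were listed for 97.5% and 97.8% of those genes. Of the neighbours HIP1, with its start 33.3 kb from the inner start of CCL26, had a called H3K27Ac peak with M of -1.08 in the authors' deposited table. A second H3K27Ac peak of HIP1, found only in library 1, had M of -0.05 there and was not called. The H3K4me3 and H3K9Ac peaks of HIP1 had -0.54 and 0.47. In the authors' deposited table PMS2P3 had M of -0.66 (H3K4me3), -0.35 (H3K9Ac) and -0.28 (H3K27Ac), none of them called. For RHBDD2 and POR, more than 100 kb away, M lay between -0.15 and 0.29 in the authors' deposited table over the 3 marks.

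CCL27 and CCL22 had weak peaks found only in library 2. CCL27, with its start at 34662689 on chromosome 9 (minus strand), had an H3K27Ac peak with M of -3.02 in the authors' deposited table and levels of 3.94 and 32.0, just over the minimum. Its H3K4me3 peak, at -2.67 in the authors' deposited table, had levels of 0.787 and 5.01. CCL22, with its start at 57392695 on chromosome 16 (plus strand), had an H3K27Ac peak with M of -3.73 in the authors' deposited table and levels of 0.976 and 13.0. At 6 hr, the time of the marks, CCL27 was at 0.147 and 0.0682 RPKM and CCL22 at 0.188 and 0.278. In all, 4 member peaks were called, 3 of H3K27Ac and 1 of H3K9Ac, each higher in library 2, as were 3.71% of H3K27Ac and 3.59% of H3K9Ac peaks. Of these, 3 lie at the inner start of CCL26 and 1 at CCL27. Both H3K27Ac peaks at the inner start share a place and are not independent. Except for the H3K27Ac peak found in both libraries, the called peaks were found only in library 2 and reached the minimum level only there. Those peaks could thus only be called higher in library 2, so their common direction is not a result.

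The other 7 members had no listed peak of any mark. Of these, 6 did not exceed 0.869 RPKM at 6 hr, and of all genes 29.4% of those under 0.5 RPKM and 74.1% of those between 0.5 and 1 had a peak. CCL5 stood at 2.21 and 2.26 RPKM at 6 hr without one, and of 3263 genes between 1 and 5 RPKM 86.8% had a peak.

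**Figure D5:**
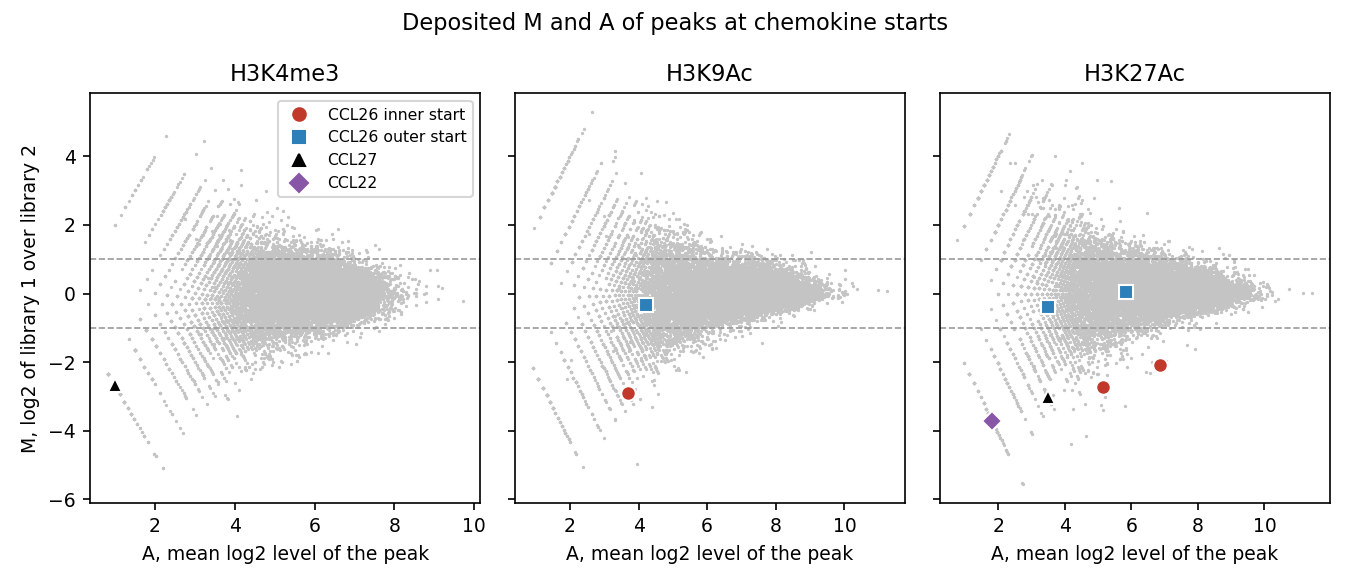
M (log2 of library 1 over library 2) against A (mean log2 level) for all peaks of each mark (grey) and those at chemokine starts. Dashed lines mark 2-fold. At the inner start of CCL26 H3K27Ac and H3K9Ac have M of -2.07 to -2.89, away from the bulk of peaks, and at the outer start -0.38 to 0.04.

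RefSeq promoter windows, from 250 bases before to 50 after a start (GRCh38.p14), were at hand for 6 of the 10 genes in 8 windows. They are printed for the 3 genes with peaks and for CCL20, whose level moved most from 2 to 6 hr in the controls. Each is on the strand of its gene, with matches to the motifs searched in capitals. The CCL26 window starts 20222 bases from the 3' end of the gene, as the outer start does in hg19, where the libraries were alike. For CCL22 and CCL27 the start lies at another distance within the RefSeq gene than in the deposited tables, so their windows need not be those of the listed starts. The sequence of the inner start was not used here. The CCL26 window is chr7:75789697-75789996, the CCL22 window chr16:57358533-57358832, the CCL27 window chr9:34662608-34662907 and the CCL20 window chr2:227813592-227813891.
CCL26: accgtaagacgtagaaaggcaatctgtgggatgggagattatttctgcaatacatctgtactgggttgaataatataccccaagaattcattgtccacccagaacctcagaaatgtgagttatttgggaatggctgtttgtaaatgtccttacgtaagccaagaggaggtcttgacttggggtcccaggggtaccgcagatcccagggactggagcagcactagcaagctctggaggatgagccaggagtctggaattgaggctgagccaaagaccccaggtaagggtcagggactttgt
CCL22: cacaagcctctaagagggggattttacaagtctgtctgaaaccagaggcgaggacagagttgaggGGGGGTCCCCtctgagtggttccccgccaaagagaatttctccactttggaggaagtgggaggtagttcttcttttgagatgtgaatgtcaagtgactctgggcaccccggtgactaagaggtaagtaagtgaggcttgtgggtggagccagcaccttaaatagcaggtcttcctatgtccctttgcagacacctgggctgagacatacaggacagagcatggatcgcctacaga
CCL27: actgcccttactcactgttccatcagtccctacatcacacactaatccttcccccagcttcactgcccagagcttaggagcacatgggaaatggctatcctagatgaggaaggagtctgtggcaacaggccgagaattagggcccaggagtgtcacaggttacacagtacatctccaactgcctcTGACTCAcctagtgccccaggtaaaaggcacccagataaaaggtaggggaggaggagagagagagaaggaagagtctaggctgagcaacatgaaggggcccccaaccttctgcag
CCL20: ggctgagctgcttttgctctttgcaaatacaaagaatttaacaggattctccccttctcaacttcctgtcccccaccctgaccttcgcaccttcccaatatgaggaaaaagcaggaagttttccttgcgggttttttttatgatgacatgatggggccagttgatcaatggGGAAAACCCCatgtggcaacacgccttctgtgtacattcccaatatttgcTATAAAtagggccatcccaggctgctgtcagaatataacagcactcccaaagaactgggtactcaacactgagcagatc

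The motifs searched, on both strands, were a STAT6 type (TTC, any 4 bases, then GAA), a general STAT type (TTCNNNGAA), the TATA box (TATAAA), AP-1 (TGANTCA) and the NF-kB consensus. Of 35116 windows of the same length 6.44%, 7.66%, 11.5%, 7.71% and 5.91% held them, in that order. The outer CCL26 window held none of the 5. The CCL20 window held a TATA box that begins 29 bases before the start, and an NF-kB match, GGAAAACCCC, that begins 79 bases before it. The CCL22 window held an NF-kB match, GGGGGTCCCC, 185 bases before the start, and the CCL27 window an AP-1 match, TGACTCA, 65 bases before it. Of the 2 windows of CCL24 one held AP-1 (TGAGTCA) and the other AP-1 (TGACTCA) and a general STAT match (TTCAAGGAA), and neither window of CCL28 held any. These matches describe the letters of the windows and do not show that a factor binds there.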

How the data were processed

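RNA and ChIP-seq libraries of TE-7 cells were used as deposited. Per the submitters' processing notes ChIP-seq used Bowtie 1.0.0, DESeq and MACS2 2.0.10.20130712, and RNA-seq used DESeq with TopHat2 2.0.9, on hg19. The sources used here do not give counting, annotation or strand. Per the file headers the authors deposited RPKM for each gene with the log2 ratio, p-value and adjusted p of each comparison. M, A (log2 scale) and −log10 p of each peak were deposited too, per the file headers, whose names are those of MAnorm. No header or label ties 6 columns of raw reads to samples, and these were not used.

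With 1 library per group, ratios were computed on log2(RPKM + 0.1), which understates changes of low genes, and read by the size rule given in the text. limma 3.58.1 (R 4.3.3) was fitted over all genes with at least 1 RPKM in at least 3 libraries, with Benjamini-Hochberg adjustment, and its script was tested on simulated data. A peak listed at several starts within 20 kb with identical values was counted once. Depth was taken from RPKM times length in microRNA and small nucleolar RNA genes of at most 300 bp, where 91.9% to 94.7% of low values lay on the steps within 0.5%. Python 3.11.15, pandas 2.3.3, SciPy 1.17.1 and matplotlib 3.10.9 were used.

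The members and lists were chosen with earlier results of these data known. Besides the members, the genes named are up to 4 of each list that passed the size rule, the 5 nearest to CCL26 and the 2 nearest neighbours on each side, while list members named for their level or role, and TNFAIP3, were chosen after their values were seen. Alternatives are given in the closing section.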

Additional observations from a re-analysis of the deposited data

How the results depend on the processing

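CCL26 was higher and past 2-fold at each time under all 5 alternatives tried, with log2 ratios of 1.92 to 2.10 at 2 hr, 2.94 to 3.13 at 6 hr and 4.68 to 4.91 at 24 hr. Its limma change ran from 2.595 to 3.997 when 1 time was left out, and its adjusted p from 0.102 to 1.0 over all settings, so it passed under none. limma-trend called 6 other genes, a pseudocount of 1 called 7, and the fit without the 2 hr pair 6 higher and 1 lower. Of 150 alternative ratios of the members 145 kept their call and 5 passed anew. Without a minimum RPKM 2 members were called at 2 hr, CCL26 and CCL17. At 6 hr 2 were called, CCL26 and CCL24, with a minimum of 0.5 RPKM and with none. At 24 hr CCL22 joined the lower genes with a minimum of 0.5, at -1.07. Calls between control times fell from 8 to 5 with a pseudocount of 1, which lost CCL27 and CCL5 from 6 to 24 hr and CCL20 from 2 to 24 hr. They rose to 11 with a minimum of 0.5 RPKM, which added CCL20 and CCL22 as higher from 6 to 24 hr and CCL22 from 2 to 24 hr. Called member peaks fell from 4 to 2 with a minimum level of 60, both H3K27Ac at the inner CCL26 start. For the counts these follow from the altered minimum or pseudocount.

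The time term of limma pairs the control and IL-13 libraries of each time, and without it CCL26 had the same change with an adjusted p of 1.0. The labels carry no replicate numbers, so no other pairing was made. Values of CCL22, CCL24 and CCL27 are limited by depth, being near or under 1 RPKM, as are those of CCL17 outside the control at 24 hr.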

Other observations

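NF-kB pathway genes were also read over time in the controls. From 2 to 6 hr 1 of 16 was 2-fold lower, TNFAIP3, a feedback inhibitor of NF-kB, at 36.4 and 5.06 RPKM, and with IL-13 it stood at 36.5 and 3.63 RPKM. Of all genes 2.36% were lower from 2 to 6 hr in the controls. These 2 controls hold 359 identical values and seem to have a read set in common. From 6 to 24 hr 4 were higher and 0 lower, where 16.2% of all genes were higher, among them BCL3 at 8.55 and 25.3 RPKM. Both genes were picked for their values.

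VWF, a protein of endothelial cells, was higher with IL-13 at 24 hr, at 0.943 and 4.21 RPKM, while the other 5 endothelial markers stayed under 0.5 RPKM in all libraries.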
